A study of Homo sapiens with 4 samples.

Results

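The inhibitor of DNA binding (ID) family consists of 4 genes, ID1, ID2, ID3 and ID4, taken here by symbol from the 63677 genes of the count table; 18252 genes passed the filter on low counts, and 3 of the 4 ID genes were among them. mRNA was sequenced from LX-2, an immortalized human hepatic stellate cell line, at 24 h after the addition of rhTGF-β1. Of the 4 libraries, 2 were from cells that had received a mimic of miR-6133-5p and 2 from cells that had received miControl, a negative control mimic, each introduced with Lipofectamine RNAiMAX at 20 nM. All 4 cultures had received 5 ng/mL of rhTGF-β1 in medium with 2% serum. No library without rhTGF-β1 was analysed here, so the response of the ID genes to TGF-β itself cannot be read from these data, only the difference between the mimics in its presence. LX-2 is a single line, and nothing in the labels states that replicates were separate cultures; the p-values therefore measure only the spread between these libraries, which may be technical.

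ID proteins hold a helix-loop-helix domain without the basic stretch that contacts DNA. They pair with E proteins, which are basic helix-loop-helix (bHLH) transcription factors, and keep them from binding E boxes in the DNA. ID1, ID2 and ID3 are standard readouts of bone morphogenetic protein (BMP) signaling, because SMAD1 and SMAD5, the SMADs phosphorylated by BMP receptors, switch them on directly. TGF-β acts on the same genes in a way that depends on the cell: SMAD3 with ATF3 represses ID1 in many epithelial cells, whereas TGF-β raises ID1 in stellate cells in culture.

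The agent was a mimic of a product of the miR-6133 hairpin, and the hairpin is printed to show its source. RefSeq places the hairpin at chr7:133290881-133290988 on the plus strand of GRCh38.p14. Where the sequence copied by the mimic lies within the hairpin is not given in the sources used here.

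MIR6133: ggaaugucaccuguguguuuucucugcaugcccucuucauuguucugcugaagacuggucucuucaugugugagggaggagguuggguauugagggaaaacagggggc

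SMAD proteins recognize the SMAD box, GTCT or its reverse complement AGAC, and SMAD1 and SMAD5 also recognize the GC palindrome GGCGCC. The 250 bases before the start site of the main transcript are shown for the 3 tested genes, from the GRCh37 genome on the strand of the gene, with SMAD boxes in capitals. They lie at chr20:30192842-30193091 (plus strand) for ID1, at chr2:8821936-8822185 (plus strand) for ID2 and at chr1:23885993-23886242 (minus strand) for ID3.

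ID1: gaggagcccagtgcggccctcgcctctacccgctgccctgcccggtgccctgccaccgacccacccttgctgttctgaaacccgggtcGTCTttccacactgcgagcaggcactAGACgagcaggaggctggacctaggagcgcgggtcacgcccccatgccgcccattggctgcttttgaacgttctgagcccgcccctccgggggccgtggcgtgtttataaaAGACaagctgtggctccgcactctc
ID2: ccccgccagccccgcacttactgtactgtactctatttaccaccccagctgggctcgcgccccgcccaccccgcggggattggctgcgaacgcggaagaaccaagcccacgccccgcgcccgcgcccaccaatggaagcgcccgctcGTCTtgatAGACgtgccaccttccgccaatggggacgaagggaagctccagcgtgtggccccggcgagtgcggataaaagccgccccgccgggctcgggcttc
ID3: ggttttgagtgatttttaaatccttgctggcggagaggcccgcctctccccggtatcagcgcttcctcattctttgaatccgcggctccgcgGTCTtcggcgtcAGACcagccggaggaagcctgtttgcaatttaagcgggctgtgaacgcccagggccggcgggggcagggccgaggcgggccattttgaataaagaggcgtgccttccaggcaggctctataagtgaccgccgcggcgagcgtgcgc

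These windows held 3 SMAD boxes in ID1, 2 in ID2 and 2 in ID3; 73.9% of 13470 tested coding genes held at least 1 in the same window. Over 2000 bases before the start site, ID1 held 26 boxes, ID2 10, ID3 13 and ID4 11, against a median of 15 over the tested genes. A count of 26 or more occurred in 1.49% of those genes. The GC palindrome occurred 1 time each in the 2000 bases before ID1, ID2 and ID4 and was not among the letters before ID3; 53.4% of genes held it. Its surroundings are shown for these 3 genes, 30 bases on each side, with the palindrome and any SMAD box on the printed strand given as GTCT in capitals. The positions are chr20:30192097-30192162 for ID1, chr2:8821748-8821813 for ID2 and chr6:19837063-19837128 for ID4, all on the plus strand.

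ID1 site: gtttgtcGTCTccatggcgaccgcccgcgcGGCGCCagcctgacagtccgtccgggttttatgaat
ID2 site: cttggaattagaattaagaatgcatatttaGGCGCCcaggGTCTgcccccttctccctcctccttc
ID4 site: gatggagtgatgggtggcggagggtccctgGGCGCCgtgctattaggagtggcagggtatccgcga

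A GC palindrome followed by GTCT after exactly 5 bases, on either strand, occurred before 0.408% of genes and before none of the 4 ID genes. E boxes (CANNTG), the sites of E proteins, numbered 8 before ID1, 5 before ID2, 10 before ID3 and 7 before ID4 over 2000 bases, and 99.9% of genes held at least 1. These are matches of letters only and say nothing of what was bound in LX-2 cells.

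ID1 rose in the presence of miR-6133-5p, ID3 was 1.38-fold higher without passing the threshold on fold, ID2 showed no detectable difference, and ID4 was at or near 0 counts in every library. A gene was called when its adjusted p was below 0.01 and its log2 fold change was beyond 0.8 in either direction. By this rule 2.90% of all tested genes were called higher and 5.54% lower, and 1 of the 3 tested ID genes was called higher and 0 lower. In bulk libraries a change in the number of cells that express a gene and a change in its RNA per cell cannot be told apart.

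ID1 (ENSG00000125968, GRCh37 chr20:30193086-30194318, plus strand) encodes the founding member of the family, which restrains differentiation and senescence in many cells. Its counts were 552 and 572 under miControl and 1609 and 1990 under the mimic. As TMM-normalized CPM (counts scaled to the size of each library) these were 11.2, 10.5, 24.6 and 20.1. Both miR-6133-5p libraries lay above both miControl libraries, as they did in 33.2% of all tested genes, and the first replicate was the higher of each group. The mean went from 10.9 ± 0.513 CPM (SD, n = 2) to 22.3 ± 3.21 CPM (SD, n = 2), a fitted log2 fold change of 1.04 (SE 0.132, 95% interval 0.75 to 1.32) with an adjusted p of 6.13e-05 by edgeR's quasi-likelihood test. In linear terms the level was 2.06-fold that of miControl, with an interval of 1.69 to 2.5. Of all tested genes, 3.96% had a larger log2 fold change. When any 1 of the libraries was left out, the log2 fold change ranged from 0.87 to 1.16, and the gene was still called each time. A test against the 0.8 threshold itself, which asks whether the change exceeds that size, gave an adjusted p of 0.256.

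ID3 (ENSG00000117318, chr1:23884417-23885992, minus strand), the most abundant member, had 3634 and 3315 counts under miControl and 6393 and 8694 under the mimic. The CPM values were 73.9, 60.9, 97.8 and 87.7, so that the groups did not overlap; this was true in the same direction of 33.2% of all tested genes. The mean was 67.4 ± 9.23 CPM (SD, n = 2) under miControl and 92.7 ± 7.13 CPM (SD, n = 2) under the mimic. The fitted log2 fold change was 0.46 (SE 0.117, 95% interval 0.21 to 0.71), or 1.38-fold, with an adjusted p of 0.00948 by edgeR's test. It thus passed the threshold on p, as did 7.96% of tested genes in the upward direction, and missed that on fold. Its place on that side of 0.01 rested on single libraries and settings. Without miControl replicate 2, the lower of its group, the log2 fold change was 0.30 and the adjusted p 0.237; without miControl replicate 1 or miR-6133-5p replicate 1 it was 0.0314 or 0.0137. Of 11 alternative fits, 6 gave an adjusted p below 0.01.

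ID2 (ENSG00000115738, chr2:8818975-8824591, plus strand), known for its part in lymphocyte and neural development and for binding the retinoblastoma protein, had 1494 and 1684 counts under miControl and 2316 and 2937 under the mimic. The CPM values were 30.4 and 30.9 against 35.4 and 29.6. The miR-6133-5p libraries lay on either side of the miControl libraries. The mean of 30.7 ± 0.374 CPM (SD, n = 2) stood against 32.5 ± 4.10 CPM (SD, n = 2), a log2 fold change of 0.08 (SE 0.116) with an adjusted p of 0.640 by edgeR's test. The 95% interval of the fold ran from 0.891 to 1.26, which leaves room for a modest change in either direction. Without miR-6133-5p replicate 1 the sign turned, with a log2 fold change of -0.07. The antisense gene ID2-AS1 overlaps 145 exon bases of ID2, 6.55% of its exon length, on the opposite strand. It held 10 to 22 counts a library, few beside those of ID2, and the processed pseudogene ID2B held 0 counts in every library. Whether counting used strand is not given in the sources used here.

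ID4 (ENSG00000172201, chr6:19837601-19842428, plus strand), a member best known from neural and mammary tissue, had 2 and 0 counts under miControl and 0 and 4 under the mimic. It did not pass the filter. At these depths 3 counts correspond to 0.0303 to 0.0610 CPM, a limit that covers counting error only, and 1 library exceeded 3 counts. No fold is given, since a difference was not detectable at this depth.

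**Figure D1:**
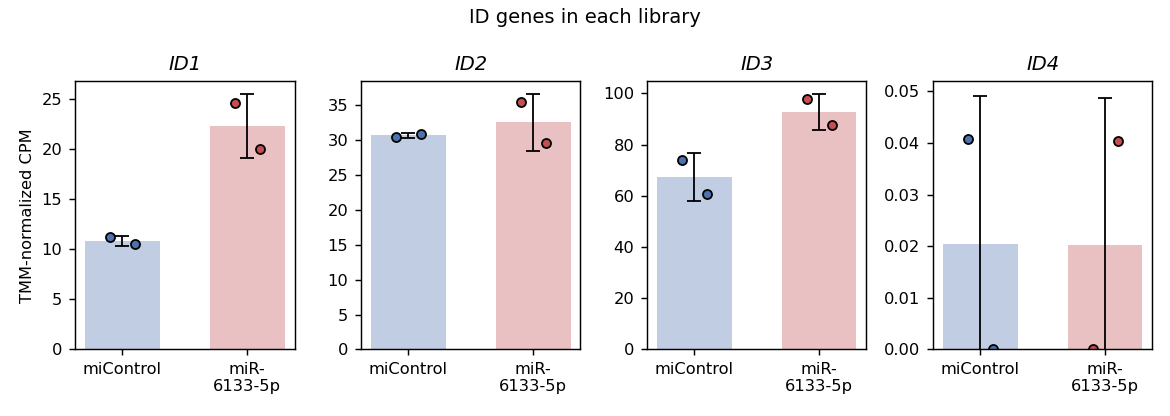
TMM-normalized CPM (linear axes from 0, one scale for each gene) of the ID genes in the 2 miControl and the 2 miR-6133-5p libraries; bars are means, error bars are SD (n = 2) and points are libraries, replicate 1 on the left. The groups are apart for ID1 (10.5 to 11.2 against 20.1 to 24.6) and ID3 (60.9 to 73.9 against 87.7 to 97.8) and overlap for ID2, while ID4 does not exceed 0.0407 CPM.

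Per kilobase of exon, the scale on which different genes can be set side by side, the order under miControl was ID3, ID2, ID1, ID4. The levels were 45.1 ± 6.17 CPM per kilobase for ID3, 13.9 ± 0.169 for ID2 and 8.81 ± 0.416 for ID1 (SD, n = 2 each). ID3 stood above 96.5% of all tested genes by its mean over both groups, ID2 above 83.5% and ID1 above 82.6%. With miR-6133-5p the levels were 62.0 ± 4.76 CPM per kilobase for ID3, 18.1 ± 2.60 for ID1 and 14.7 ± 1.85 for ID2 (SD, n = 2 each). ID3 was the highest member in every library, and ID1 the lowest of the tested members in both miControl libraries. The order of ID1 and ID2 under the mimic was not settled, because the libraries stood close, at 20.0 and 16.3 for ID1 and 16.0 and 13.4 for ID2, and because it depended on the length used. With the length of the canonical transcript in place of all exon bases, ID2 was at 25.0 and ID1 at 22.7 CPM per kilobase.

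The family summed to 72.3 and 63.2 CPM per kilobase under miControl and 101 and 88.3 under the mimic. ID1 made up 12.6% and 13.5% of that sum under miControl and 19.7% and 18.4% under the mimic. The share of ID2 was 19.0% and 22.1% under miControl and 15.8% and 15.2% under the mimic. ID3 held 64.4% to 68.4% in all 4 libraries.

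**Figure D2:**
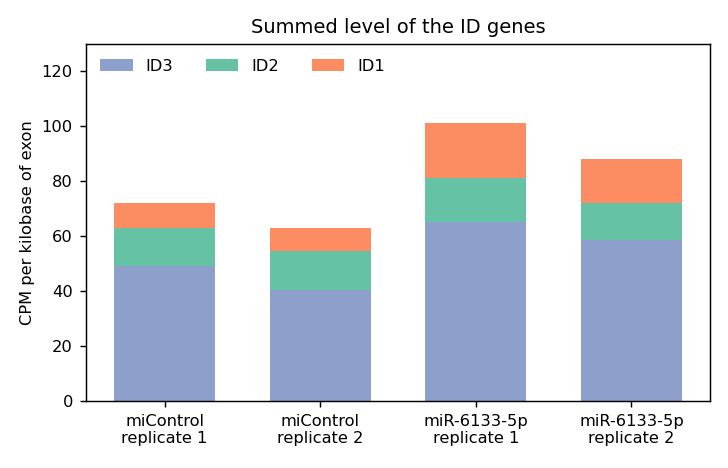
Summed level of ID3, ID2 and ID1 in CPM per kilobase of exon (stacked bars from 0) in each library. The ID1 segment goes from 9.11 and 8.52 under miControl to 20.0 and 16.3 under the mimic, while the ID2 segment stays between 13.4 and 16.0.

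The ratio of 2 genes within a library does not depend on how libraries are scaled, so the members were also compared with each other as log2 ratios of raw counts. The ratio of ID1 to ID2 was -1.44 and -1.56 under miControl and -0.53 and -0.56 under the mimic, a difference of 0.95. The ratio of ID1 to ID3 was -2.72 and -2.54 against -1.99 and -2.13, a difference of 0.57. The ratio of ID2 to ID3 was -1.28 and -0.98 against -1.47 and -1.57, a difference of -0.39. The groups were apart for each of the 3 pairs. How often other pairs of genes are apart was not computed. Among all tested single genes, both miR-6133-5p libraries lay above both miControl libraries in 33.2% and below them in 31.3%. The 3 ratios are not independent, since each follows from the others. The exact permutation test (two-sided) gave p = 0.333 for each, also after adjustment over the 3 pairs, which is the smallest p that 2 against 2 libraries allow, so a threshold of 0.05 could not be reached. Pairs with ID4 were not computed.

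**Figure D3:**
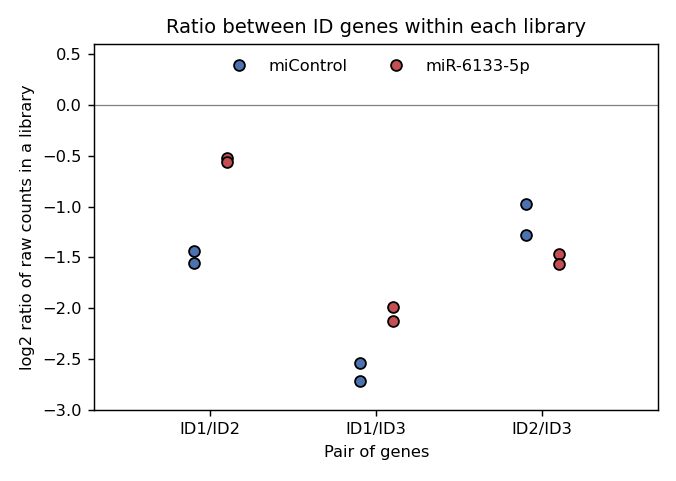
log2 ratio of raw counts between 2 ID genes within each library, for 3 pairs (points are libraries, 2 for each group; the grey line marks equal counts). The 2 groups are apart in each pair, by 0.95 for ID1 to ID2, 0.57 for ID1 to ID3 and -0.39 for ID2 to ID3. How often other pairs of genes are apart was not computed.

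The genes of the E proteins, the partners of the ID proteins, had negative log2 fold changes that did not pass both thresholds. The 3 E protein genes, TCF3 (E2A), TCF4 (E2-2) and TCF12 (HEB), were all tested, and 0 were called; their median log2 fold change was -0.42, against 0.03 for all tested genes. TCF3 was at 169 and 155 CPM under miControl and at 110 and 112 under the mimic, a log2 fold change of -0.55 (SE 0.103) with an adjusted p of 0.00132, short of the fold threshold. The log2 fold change of TCF4 was -0.42 (adjusted p = 0.0133) and that of TCF12 was -0.30 (adjusted p = 0.0458), both above 0.01. In each of these 3 genes the miR-6133-5p libraries lay below the miControl libraries, as they did in 31.3% of all tested genes.

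Of 30 other bHLH genes, tissue-restricted activators and repressors of the HES, HEY and BHLHE groups, 13 were tested. Among these, 1 was called lower and 0 higher, against 5.54% lower and 2.90% higher over all tested genes. The median log2 fold change of the list was -0.22. The called gene was TWIST2, a mesenchymal bHLH factor that pairs with E proteins. It fell from 16.4 ± 0.218 to 8.96 ± 0.0753 CPM (SD, n = 2), a log2 fold change of -0.87 (SE 0.120, adjusted p = 0.000122).

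BMP receptor genes were called lower or not called, while ID1 was called higher. Of 10 BMP receptor and co-receptor genes 9 were tested, and 5 were called lower and 0 higher, a share of 5.54% being called lower over all tested genes. The median log2 fold change was -0.96 on this list. BMPR2, the type II receptor for BMPs, was at 835 and 1054 CPM under miControl and at 266 and 339 under the mimic. This was a log2 fold change of -1.64 (SE 0.141, adjusted p = 2.12e-06). RGMB, a membrane-anchored BMP co-receptor, fell from 1157 and 1150 to 385 and 371 CPM, a log2 fold change of -1.61 (SE 0.102). The groups were far apart in both genes.

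ACVR1, a type I receptor also named ALK2, fell from 45.2 ± 1.53 to 21.6 ± 2.53 CPM (SD, n = 2), a log2 fold change of -1.07. ENG, the co-receptor endoglin, fell from 162 ± 12.3 to 82.2 ± 3.74 CPM (SD, n = 2), a log2 fold change of -0.97. BMPR1B, a type I receptor expressed at a low level here, went from 3.25 ± 0.181 to 1.67 ± 0.0127 CPM (SD, n = 2), a log2 fold change of -0.96. Its call was lost without miControl replicate 1 (adjusted p = 0.0546) and without miControl replicate 2 (adjusted p = 0.0219). The other tested receptors were not called: the log2 fold changes were -0.07 for the type I receptor BMPR1A, -0.40 for the type II receptor ACVR2A, 0.04 for ACVR2B and 0.25 for ACVRL1 (ALK1), the last at 0.198 CPM or less on average.

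Among the SMADs of the BMP branch, SMAD1 was called lower, from 14.0 and 14.0 CPM to 7.40 and 8.35 CPM, a log2 fold change of -0.83 (SE 0.128, adjusted p = 0.000312). This value lies close to the threshold of 0.8; the call was lost without miControl replicate 1 (adjusted p = 0.0126) and without miR-6133-5p replicate 1, where the log2 fold change was -0.76. SMAD5, at 204 to 232 CPM in all 4 libraries, had a log2 fold change of 0.04 (SE 0.108, adjusted p = 0.813). SMAD9 had a log2 fold change of -0.67 (adjusted p = 0.00130), under the fold threshold. SMAD4, the partner shared with the TGF-β branch, had a log2 fold change of -0.05 (adjusted p = 0.796). Neither the phosphorylation of SMADs nor any protein was measured in these libraries.

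Of 14 BMP-type ligand genes 4 were tested, and 1 was called higher and 0 lower, against 2.90% called higher over all tested genes. The median log2 fold change of the list was -0.13. BMP4, a ligand that acts through BMPR2 and the type I receptors, was at 3.13 and 3.87 CPM under miControl and at 6.49 and 6.10 under the mimic, a log2 fold change of 0.84 (SE 0.169, adjusted p = 0.00204). The groups did not overlap, as was true in the same direction of 33.2% of all tested genes. The call was lost after thinning to the smallest library (log2 fold change 0.798) and in a test against the 0.8 threshold itself. It was also lost without miControl replicate 1 (log2 fold change 0.69), without miControl replicate 2 (0.98) and without miR-6133-5p replicate 1 (0.78). Of 17 secreted antagonists and modulators 10 were tested, with a median log2 fold change of -0.41. Among these 10, 1 was called lower and 1 higher, against 5.54% lower and 2.90% higher over all tested genes. FST, follistatin, which traps activins and some BMPs, was called lower, from 9.59 ± 0.366 to 2.44 ± 0.546 CPM (SD, n = 2; log2 fold change -1.98). FSTL3, a related protein that mainly binds activins, was called higher, from 38.6 ± 4.42 to 89.4 ± 0.429 CPM (SD, n = 2; log2 fold change 1.21).

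The 9 tested receptor-level and intracellular inhibitors held 0 called genes and had a median log2 fold change of 0.08. With 5.54% called lower and 2.90% higher over all tested genes, 0 calls among 9 do not set this list apart. SMURF2, a ubiquitin ligase that marks SMADs and their receptors for removal, stood at 863 ± 25.8 against 502 ± 13.6 CPM (SD, n = 2), a log2 fold change of -0.78 just under the threshold (adjusted p = 7.09e-05). It was called lower without miControl replicate 1 (log2 fold change -0.82) and without miR-6133-5p replicate 1 (log2 fold change -0.83). Its relative SMURF1 had a log2 fold change of 0.08 (adjusted p = 0.630).

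**Figure D4:**
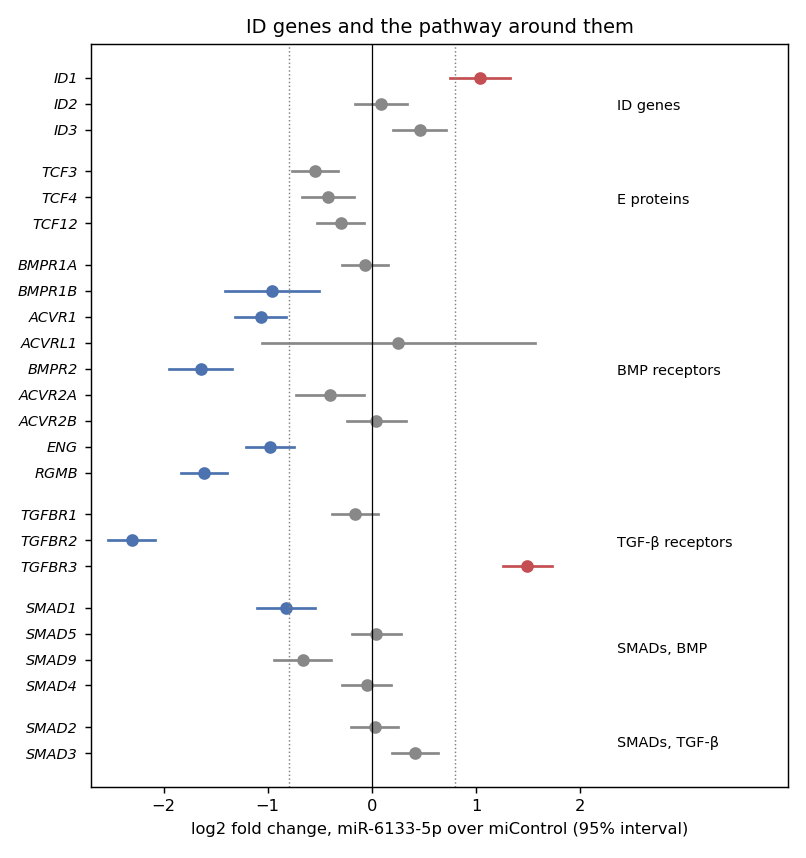
log2 fold change of miR-6133-5p over miControl with its 95% interval from edgeR, for the tested ID genes, E protein genes, receptors and SMADs; red marks genes called higher, blue called lower and grey not called, and dotted lines stand at -0.8 and 0.8. ID1 (1.04) and the TGF-β co-receptor gene TGFBR3 (1.49) stand to the right of the upper line, and 5 BMP receptor genes, TGFBR2 (-2.31) and SMAD1 (-0.83) stand to the left of the lower line.

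On the TGF-β side, TGFBR2, the type II receptor, fell from 542 and 552 CPM to 109 and 112 CPM, a log2 fold change of -2.31 (SE 0.105, adjusted p = 1.98e-08). TGFBR3, the co-receptor betaglycan, rose from 24.6 and 25.6 to 66.9 and 74.5 CPM, a log2 fold change of 1.49 (SE 0.108, adjusted p = 5.08e-07). TGFBR1, the type I receptor, had a log2 fold change of -0.16 (adjusted p = 0.265). SMAD3, which relays the TGF-β signal and can repress ID1, was at 108 and 107 CPM against 139 and 148, a log2 fold change of 0.41 (SE 0.102) with an adjusted p of 0.00767, under the fold threshold. SMAD2 had a log2 fold change of 0.03 (adjusted p = 0.872).

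ID1 was set beside the other known targets of each branch. Of 13 other BMP target genes 10 were tested and 0 were called in either direction, with a median log2 fold change of -0.18. Over all tested genes 2.90% were called higher and 5.54% lower, so 0 calls among 10 genes do not set this list apart. Of the 10 tested BMP targets, 2 had an adjusted p below 0.01, RUNX2 and SMAD9, both with a negative log2 fold change. The largest difference on the list was upward, in NOG, which encodes the secreted BMP antagonist noggin and is named here after its values were seen. NOG was at 0.732 and 1.32 CPM under miControl and at 2.26 and 1.94 under the mimic, with a log2 fold change of 1.02 (SE 0.299) and an adjusted p of 0.0202, so that it was not called. It was called higher without miR-6133-5p replicate 2 (adjusted p = 0.00563), with library totals, without the filter and with a replicate block, and its log2 fold change was 0.65 without miControl replicate 1. RUNX2, an osteogenic transcription factor, was at 33.7 ± 0.758 CPM under miControl and 23.2 ± 0.0852 CPM under the mimic (SD, n = 2), a log2 fold change of -0.54 (adjusted p = 0.00182). SMAD7, an inhibitory SMAD that both branches induce, had a log2 fold change of -0.31 (adjusted p = 0.0423).

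All 15 genes listed as TGF-β targets were tested, and 7 were called lower and 0 higher, with a median log2 fold change of -0.66. Over all tested genes 5.54% were called lower and 2.90% higher. CTGF, a matricellular growth factor, was at 1350 and 1339 CPM under miControl and at 292 and 249 under the mimic, a log2 fold change of -2.31 (SE 0.114). ACTA2, smooth muscle actin, went from 38.2 ± 4.80 to 9.91 ± 0.176 CPM (SD, n = 2; log2 fold change -1.95). COL1A1, a chain of type I collagen, went from 2917 ± 275 to 1064 ± 97.5 CPM (SD, n = 2; log2 fold change -1.46). ACTA2 and COL1A1 were outcomes of the study itself, and the lists were drawn up with results of these libraries known, so the counts describe these genes and no more.

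Of 4 factors outside the BMP branch known to act on ID genes, 2 were called lower, against 5.54% of all tested genes. EGR1, an immediate early factor known to activate ID1, fell from 19.1 and 16.9 CPM to 3.43 and 3.40 CPM, a log2 fold change of -2.40 (SE 0.137, adjusted p = 9.62e-08). MYC, which can activate ID2, fell from 160 ± 5.44 to 89.2 ± 3.83 CPM (SD, n = 2), a log2 fold change of -0.85 (SE 0.103). Of 8 genes known to be controlled by E proteins and IDs or to encode ID partners, 1 was called lower and 0 higher, with a median log2 fold change of 0.12. That gene was THBS1, which encodes thrombospondin-1 and is known to be repressed by ID1. It fell from 4290 and 4257 CPM to 2178 and 2515 CPM, a log2 fold change of -0.86 (SE 0.105, adjusted p = 4.11e-05), and its call was lost without miR-6133-5p replicate 1 (log2 fold change -0.78). A further gene of this list, CDKN1A, the cell cycle inhibitor p21 that E proteins activate, lay just under the fold threshold and is named after its values were seen. CDKN1A was at 19.9 and 18.9 CPM under miControl and at 10.9 and 11.4 under the mimic, with a log2 fold change of -0.80 (adjusted p = 0.000212). It was called lower without miControl replicate 2 (-0.86), without miR-6133-5p replicate 2 (-0.84) and, at -0.81 or -0.80, with RLE, DESeq2 and a minimum of 10 counts, which made the count of this list 2. Other cell cycle inhibitor genes of this list went the other way and were not called. The log2 fold change was 1.94 for CDKN1C, with 2 and 6 counts under miControl and 18 and 32 under the mimic. It was 0.39 for CDKN2B and 0.28 for CDKN2A. The remaining members, also not called, were at 0.21 (USP1), 0.02 (RB1) and -0.35 (CAV1). Over all 13 lists, 121 genes were named, 84 were tested, 19 were called lower and 3 higher, and the median log2 fold change was -0.38. The shares over all tested genes were 5.54% lower and 2.90% higher.

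The profiles over the 4 libraries were compared with those of 9463 genes that have a symbol and a mean log2 CPM of at least 3, by the Euclidean distance between log2 CPM values centred on each gene's mean. The nearest to ID1 were POP5 (distance 0.0617), REEP4 (0.0805) and DEAF1 (0.0823), where the median distance of all candidates was 1.06; this median was 0.38 for ID2 and 0.569 for ID3. The nearest to ID2 were BCCIP (0.0153), MRPL50 (0.0186) and TMEM14C (0.0191), and those to ID3 were CBR3 (0.0216), UBALD2 (0.0294) and DGCR6L (0.0298). Between members the distances were 0.956 for ID1 and ID2, 0.589 for ID1 and ID3 and 0.447 for ID2 and ID3. The named genes were picked as the nearest of 9463, so the distances between members cannot be judged against theirs. With 4 libraries in 2 groups such a distance mostly reflects the size of the group difference.

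The libraries held 51862006 to 93811213 counts, with 96.52% to 96.76% of read pairs mapped uniquely, and TMM factors were 0.941 to 0.948 under miControl and 1.06 under the mimic. The label of a stellate cell was checked on 13 markers, of which 8 passed the filter. PDGFRB, VIM, COL1A1 and COL1A2 were expressed, whereas the quiescence markers LRAT and GFAP, and also DES, HGF and LUM, held 0 to 8 counts in every library. DCN passed the filter but was near 0, with 10 and 10 counts under miControl and 0 and 6 under the mimic. Its log2 fold change was -2.40 (adjusted p = 0.0631 by edgeR's test), and it was not called. RELN was low, at 2.38 CPM on average under miControl and 2.86 under the mimic, and was not called. The summed level of this list was 4640 to 5117 CPM under miControl and 2786 to 3111 under the mimic, most of the difference being that of COL1A1 (2917 against 1064 CPM). VIM (log2 fold change -0.02), PDGFRB (0.04) and NGFR (0.42, adjusted p = 0.0327) were not called. Of 11 markers of hepatocytes, endothelium, leukocytes and biliary epithelium 10 were matched and 1 passed the filter. This was VWF, an endothelial marker, with 25 and 12 counts under miControl and 36 and 76 under the mimic. Its log2 fold change was 0.87 (adjusted p = 0.187 by edgeR's test), and it was not called. TTR was at 0 in every library, and ALB held 2 to 6 counts. The matched markers summed to 0.679 to 0.997 CPM under miControl and 1.18 to 1.51 CPM under the mimic. The part of either marker list in the results was not tested.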

How the data were processed

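Total RNA was made into TruSeq Stranded mRNA libraries and sequenced as read pairs. The authors deposited raw counts per Ensembl gene; STAR 2.5.3a, featureCounts and Subread 1.6.4 with GRCh37 are named in the submitters' processing notes. The table held 1.68 to 1.70 counts per uniquely mapped read pair, so counts are not independent fragments. The deposited counts were tested with edgeR 4.0.16 (R 4.3.3; filterByExpr, TMM, glmQLFit and glmQLFTest, two-sided, Benjamini-Hochberg over 18252 genes), with 2 libraries against 2 and no block. Intervals are 95%, and the SE is the log2 fold change divided by the square root of F. CPM uses TMM library sizes. Alternatives were RLE and unscaled library totals, DESeq2 1.42.0, other filters, a replicate block, thinning, leaving out each library, glmTreat, an adjusted p of 0.05 and canonical transcript lengths; the values of the ID genes with a library left out were planned, and the refitted tests and their calls on 3 libraries were added after seeing the data. Exons came from GENCODE v44lift37 (GRCh37). Fits were tested on simulated data. The members, the 15 gene lists and the tests were chosen with earlier results of these data known. Named were all tested E proteins, receptors and SMADs, up to 3 called genes of each other list by size of change or, with none called, the 2 most abundant, and the 3 genes most like each member. The table held no row for reads outside genes, so their number is not known here.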

Additional observations from a re-analysis of the deposited data

How the results depend on the processing

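The 4 ID genes gave 0 calls lower under every alternative, and 1 call higher under every one except glmTreat (0; ID1 log2 fold change 1.04, adjusted p = 0.256). Each library left out in turn moved ID1 between 0.87 and 1.16, ID2 between -0.066 (without miR-6133-5p replicate 1) and 0.19 and ID3 between 0.30 and 0.60. ID3 had an adjusted p of 0.0116 with RLE, 0.0139 after thinning and 0.00357 with DESeq2. Over all tested genes, 1011 were called lower and 529 higher; glmTreat gave 326 and 80, and library totals gave 709 and 977. Totals moved the median of all genes from 0.03 to 0.19, and relative to it ID1 was at 1.01, ID2 at 0.06 and ID3 at 0.43 under both scalings. With 1 library left out, refits called 770 to 1249 lower and 293 (without miControl replicate 1) to 587 higher, and by fold alone, which counts more by its construction, up to 2671 were lower and 2159 higher. Of the listed pathway genes, 19 were called lower and 3 higher. With glmTreat 8 and 1 were called, among them 2 BMP receptors and 3 TGF-β targets, and an adjusted p of 0.05 gave 5 higher. By fold alone, without a threshold on p, 21 to 24 were lower and 5 or 6 higher when a library was left out. With canonical lengths, means per kilobase under miControl and miR-6133-5p were 11.1 and 22.7 for ID1, 23.6 and 25.0 for ID2 and 70.9 and 97.6 for ID3. Replicates with the same number did not deviate together (correlation 0.0490, and only 2 pairs); the replicate block gave log2 fold changes of 1.03 for ID1, 0.08 for ID2 and 0.47 for ID3, with 1130 genes lower and 642 higher. Signs turned for genes near 0: with library totals BMPR1A 0.10, TGFBR1 0.001165 and SMAD4 0.12; with 1 library left out ACVR2B ran from -0.11 to 0.14, SMAD5 from -0.050 to 0.10, SMAD4 from -0.16 to 0.031 and SMAD2 from -0.053 to 0.076. With library totals TWIST2 (-0.71), BMPR1B (-0.79), SMAD1 (-0.66), MYC (-0.68) and THBS1 (-0.70) were no longer called. The cause was not tested. With 0 to 4 counts a library, no difference in ID4 could be detected.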

Other observations

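The genes next to the ID genes on the chromosome were looked at for their own sake, as the nearest tested coding gene on each side. Beside ID1, HM13 at 27.4 kb had a log2 fold change of -0.14 (adjusted p = 0.366) and BCL2L1 at 57.9 kb one of -0.05 (adjusted p = 0.778), so that neither was called while ID1 was. Beside ID3, E2F2, a cell cycle transcription factor at 26.7 kb, was called higher, from 7.51 to 14.4 CPM on average (log2 fold change 0.94, SE 0.128, adjusted p = 0.000115), whereas RPL11 at 132 kb had a log2 fold change of -0.01. Beside ID2, KIDINS220 at 36.6 kb had a log2 fold change of -0.01 (adjusted p = 0.952), and on the other side RSAD2, at 1780 kb, had one of 1.09 (SE 0.478, adjusted p = 0.104). Beside ID4, MBOAT1 at 257 kb had a log2 fold change of -0.63 (adjusted p = 0.0137) and RNF144B at 1370 kb one of 0.30 (adjusted p = 0.533); neither was called. Adjusted p values are from edgeR's quasi-likelihood test over all tested genes.

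Among the antagonists, GREM1, which encodes the secreted BMP antagonist gremlin, was chosen after its values were seen. It was at 1820 and 1862 CPM under miControl and at 1347 and 1263 CPM under the mimic, a log2 fold change of -0.50 (SE 0.0994, adjusted p = 0.00203), which did not pass the fold threshold.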
